A study of Homo sapiens with 28 samples.

Results

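NUMB and 9 genes of the Notch pathway (NUMBL, NOTCH1, NOTCH2, RBPJ, MAML1, ADAM10, HES1, ITCH and SPEN) were followed across RNA-seq of 2 leukemia cell lines in which MBNL1, an RNA-binding regulator of splicing, had been knocked down. The genes were taken by name, NUMB being a Notch regulator that the study itself picked out on these samples. They made up 10 of the 22391 genes with an expression value and 85 of the 100814 splicing events, which fell in 23 of 29031 clusters of linked junctions. Both lines, MOLM13 (MLL-AF9) and MV4;11 (MLL-AF4), derive from acute myeloid leukemia with an MLL rearrangement. All 28 libraries came from cells infected with a lentiviral hairpin vector and kept under puromycin selection, the control groups included.

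The knockdown groups were MOLM13 with hairpin shMBNL1-64 (sh64, 3 libraries, at day 4 by the study's account), MOLM13 with hairpin shMBNL1-65 (sh65, 4 libraries), MOLM13 with sh64 at day 12 (3 libraries), MV4;11 with sh64 (3 libraries) and MV4;11 with sh65 (3 libraries). Each was set against the non-targeting hairpin shNT with 3 libraries: a first MOLM13 set for sh64, a second MOLM13 set for sh65, a day 12 set, and 1 MV4;11 set that served both hairpins. No source used here gives the day of collection for sh65 or for MV4;11. Only the day 12 libraries are described as biological triplicates, so outside day 12 the p-values measure the spread between libraries that may be technical. Each line stands for its leukemia subtype with 1 cell line only.

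The values used were RPKM (reads per kilobase of gene, scaled to the size of the library) and PSI (the percentage of junction reads at a splice choice that use the junction examined). Relative to the deepest library, depth ran between 0.65 and 1.0 at day 12 and between 0.28 and 0.78 in the other 22 libraries, and between 69381 and 83195 splicing events were measured per library. The number of reads behind a PSI value is unknown. The libraries numbered 3 of MOLM13 sh64 and of the first shNT set stood apart from their mates (r = 0.919 to 0.930 over genes, against 0.995 between the others), as did MV4;11 shNT library 3, and the MOLM13 sh65 libraries fell into a pair 1 and 2 and a pair 3 and 4. The second MOLM13 shNT set is lettered, and its library a was also further from its mates (r = 0.956 and 0.963, against 0.9805 between the others). Values without these libraries are given beside the results they moved most. Myeloid genes such as CD33, FLT3, LYZ and SPI1 were detected in both lines, while CEBPA was listed at 0.00974 RPKM in every library. Among markers of other blood cells the B cell gene MS4A1 reached at most 0.0201 RPKM and CD3E and CD2 reached at most 0.122 RPKM, but the T cell gene CD3D reached 12.2 RPKM.

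Notch receptors are membrane proteins that are cut after a ligand binds them, first by the protease ADAM10 and then by gamma-secretase. The freed intracellular part enters the nucleus, where it joins the DNA-binding protein RBPJ and a coactivator of the Mastermind family such as MAML1, and displaces corepressors such as SPEN from target genes that include HES1. NUMB is an endocytic adaptor, known from the fly as a cell fate determinant, which opposes Notch by working with the ubiquitin ligase ITCH on the receptor's internalization and breakdown. Its transcripts are known to differ by a short insert in the phosphotyrosine-binding domain and a longer one in the proline-rich region. MBNL proteins bind YGCY motifs in RNA and can favor or block an exon.

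The NUMB gene lies on the minus strand of chromosome 14, at chr14:73741815-73925323 in GRCh37. The exon that carried the changes below is named E20.1 in the splicing table. It spans 144 bases at chr14:73745989-73746132 and is joined on one side to E18.1, which ends at position 73749067, and on the other to E21.3, which begins at 73744001. The 144 bases make 48 codons' worth of sequence with no stop in the annotated frame, and 5 of the 28 annotated NUMB transcripts hold the exon. The exon is shown with 100 bases of intron on each side because its use differed between knockdown and shNT in all 5 comparisons. The second exon shown, E13.1, is 33 bases long at chr14:73783098-73783130, 11 codons' worth, and is present in 10 of 28 transcripts. All 4 are read in the direction of transcription, and capitals mark matches to TGCT or to TGCC or to CGCT or to CGCC, the 4 forms of YGCY.
Intron before E20.1: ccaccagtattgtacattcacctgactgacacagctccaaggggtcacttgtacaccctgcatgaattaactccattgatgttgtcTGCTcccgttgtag
Exon E20.1: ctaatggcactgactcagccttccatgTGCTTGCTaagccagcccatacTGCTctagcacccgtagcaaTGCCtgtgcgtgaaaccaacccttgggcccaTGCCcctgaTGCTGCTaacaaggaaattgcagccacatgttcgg
Intron after E20.1: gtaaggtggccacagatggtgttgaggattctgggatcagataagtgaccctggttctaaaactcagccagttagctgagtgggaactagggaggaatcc
Exon E13.1: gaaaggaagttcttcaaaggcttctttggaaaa

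Exon E20.1 held 7 matches, all of them TGCT or TGCC and one pair of them sharing a base, and 3 matches on the opposite strand. Of 1296 internal protein-coding exons of 144 bases in the annotation, 47 (3.6%) held 7 or more. The 100 bases of intron before it held 1 match, where 68.6% of 189031 such windows held at least 1, and the 100 bases after it held none. Over 250 bases the counts were 3 before the exon and 1 after it. Exon E13.1 held none. These are letter matches in the reference and describe the sequence only.

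**Figure D1:**
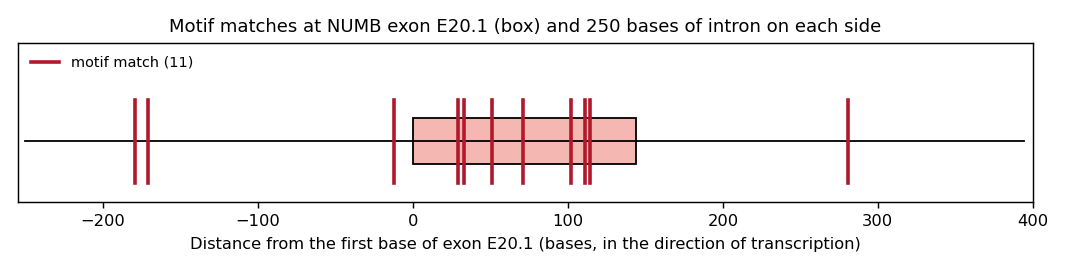
Positions of YGCY matches (vertical marks, 11 in all) along NUMB exon E20.1 (box, 144 bases) and 250 bases of intron on each side; the horizontal axis is the distance in bases from the first base of the exon, in the direction of transcription. The exon holds 7 marks, the intron before it 3 and the intron after it 1.

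The knockdown differed in depth between the hairpins. MBNL1 was at 2.94 to 4.65 RPKM in the 9 sh64 libraries, at 8.26 to 15.4 RPKM in the 7 sh65 libraries and at 17.5 to 28.6 RPKM in the 12 shNT libraries, with no overlap. MBNL1 left in sh64 cells was 14.4% of shNT in MOLM13, 16.7% in MOLM13 at day 12 and 16.6% in MV4;11, and in sh65 cells 67.3% in MOLM13 and 53.3% in MV4;11. The fall was significant after adjustment over all genes at day 12 and with both hairpins in MV4;11 (adjusted p = 1.96e-07, 0.00046 for sh64 and 0.0367 for sh65, limma), but not in MOLM13 with sh64 (adjusted p = 0.0674, or 0.00328 with same-numbered libraries paired) or with sh65 (adjusted p = 0.209).

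NUMB exon E20.1 was included more in all 5 knockdown groups, by an unadjusted p of 0.01 or less and a difference over 10 points, the rule for a call throughout. Over all libraries the junction that enters the exon was used at 60.8 to 84.0% with sh64, at 24.02 to 40.7% with sh65 and at 0.87 to 15.2% with shNT. The junction that leaves the exon stood at 53.8 to 75.8% with sh64, at 17.6 to 31.4% with sh65 and at 2.19 to 15.8% with shNT, and the junction that skips it at 10.3 to 26.9%, 46.0 to 60.9% and 74.5 to 92.5% in the same order of hairpins. None of these ranges overlapped. The entry and skipping values of a library summed to between 84.9 and 96.8% rather than 100%, and how the denominator of each was formed was not tested. The 3 junctions describe 1 exon and are not separate evidence.

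**Figure D2:**
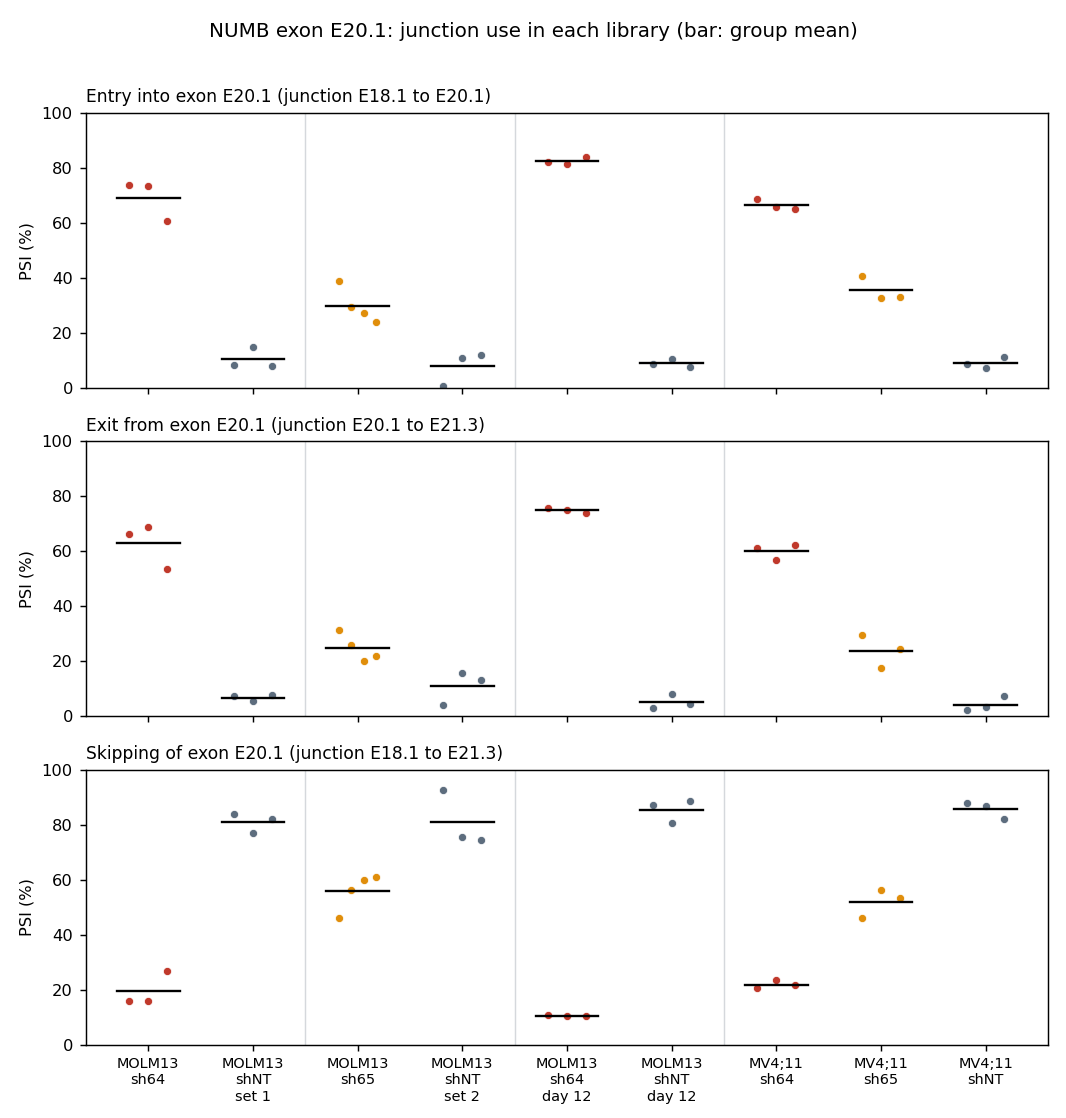
PSI (percent, vertical axis) of the junctions that enter, leave and skip NUMB exon E20.1 in each of the 28 libraries (points), by group (horizontal axis); black bars are group means. With sh64 entry lies at 60.8 to 84.0% and with sh65 at 24.02 to 40.7%, above all shNT libraries.

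In MOLM13 cells the entry junction was used at 73.8, 73.5 and 60.8% with sh64, against 8.3, 15.2 and 8.3% with shNT. The lowest sh64 library was the one numbered 3. The mean was 69.35 ± 7.39% against 10.60 ± 3.98% (SD, 3 libraries each), a difference of 58.7 points (SE 4.60, adjusted p = 0.0402, limma). Exit differed by 56.2 points (adjusted p = 0.0428, limma) and skipping by -61.5 points (adjusted p = 0.0263, limma). The libraries numbered 3 of these 2 groups deviated together, while the pairing of the others by number was not tested. With same-numbered libraries as a block the adjusted p was 0.231 for entry, 0.266 for exit and 0.231 for skipping (limma). The difference was then no longer significant after adjustment, although still past the unadjusted threshold of 0.01. Without both libraries numbered 3 the differences were 61.8, 61.3 and -64.7 points (adjusted p = 0.111, 0.0559 and 0.106, limma).

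At day 12 the separation was wider. Entry stood at 82.5, 81.6 and 84.0% with sh64, against 9.0, 10.7 and 7.7% with shNT, a difference of 73.6 points (SE 1.07, adjusted p = 0.000191, limma). Exit stood at 75.8, 75.0 and 73.9% with sh64, against 3.0, 8.2 and 4.5% with shNT, and skipping at 10.9, 10.3 and 10.6% with sh64, against 87.2, 80.7 and 88.5% with shNT. The sh64 libraries lay within 2.39 points of each other at each junction. Both differences were significant (69.7 points, adjusted p = 0.000738, and -74.9 points, adjusted p = 0.0016, limma). The difference at day 12 exceeded that at day 4 by 14.8 points for entry (SE 4.83, unadjusted p = 0.0143), which did not pass adjustment over the 70993 events tested (adjusted p = 0.859, limma interaction, or 0.408 with the day 4 pairs as a block). The day 12 libraries were run on another sequencer model, and day and sequencer cannot be told apart.

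In MV4;11 cells sh64 gave entry at 68.9, 65.8 and 65.37%, against 8.8, 7.4 and 11.5% with shNT, a difference of 57.5 points (SE 1.57, adjusted p = 0.0037, limma). Exit rose by 55.8 points (adjusted p = 0.0074, limma) and skipping fell by 63.7 points (adjusted p = 0.0048, limma). These sizes were close to those in MOLM13: the difference between the lines was -1.28 points for entry (SE 4.98, adjusted p = 1, limma interaction), an SE that leaves room for differences of several points in either direction.

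With sh65 the same exon moved less far. In MV4;11 entry was at 40.7, 32.9 and 33.3% with sh65, against the same 8.8, 7.4 and 11.5% with shNT, a difference of 26.4 points (SE 2.67) that passed the unadjusted threshold but not adjustment (adjusted p = 0.177, limma). Skipping was at 46.0, 56.1 and 53.3% with sh65, against 88.0, 86.7 and 81.9% with shNT (-33.7 points, adjusted p = 0.172, limma). Exit was at 29.7, 17.6 and 24.5% with sh65, against 2.2, 3.3 and 7.5% with shNT (19.6 points, adjusted p = 0.415, limma). The exit call was lost without sh65 library 3 (19.3 points) and without any one of the shNT libraries (18.5, 19.1 and 21.2 points), at unadjusted p of 0.0116 to 0.0204.

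In MOLM13 entry was at 39.0, 29.6, 27.5 and 24.02% with sh65, against 0.9, 11.1 and 12.0% with the second shNT set. The groups did not overlap, and the difference was 22.0 points (SE 4.63, adjusted p = 0.333, limma). Skipping was at 46.1, 56.4, 60 and 60.9% with sh65, against 92.5, 75.4 and 74.5% with shNT (-25.0 points, adjusted p = 0.3996, limma), and exit differed by 13.9 points, which missed the unadjusted threshold. Both calls were lost in fits that left out 1 library, while the entry difference stayed between 18.5 and 24 points. The entry call was lost without sh65 library 2 (22.2 points), sh65 library 3 (22.9 points) or either of the shNT libraries at 0.9% (18.5 points) and 11.1% (23.6 points), and the skipping call was lost when any one of the 7 libraries was left out (-28.1 to -19.1 points). Entry differed by 17.8 points without sh65 libraries 1 and 2 and by 26.3 points without sh65 libraries 3 and 4, and neither met the threshold.

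The hairpins were compared directly in MV4;11, without the shNT libraries they share. Entry was 31.1 points higher with sh64 than with sh65 (66.71 ± 1.94% against 35.64 ± 4.38%, SE of the difference 2.63, adjusted p = 0.0800, limma), exit was 36.2 points higher (adjusted p = 0.122, limma) and skipping differed by -29.99 points (adjusted p = 0.115, limma). All 3 passed the unadjusted threshold and none passed adjustment. They were the 3 of 81 tested events of the 10 genes called between the hairpins, where 1.16% of all events were. From hairpin to hairpin lower MBNL1 went with higher use of the exon, but not between all group means of the same hairpin, which also differ in line or day. Of the sh64 groups day 12 had both the highest mean MBNL1 (4.40 RPKM) and the highest mean entry (82.7%), and of the shNT groups the second MOLM13 set had both the lowest MBNL1 (18.9 RPKM) and the lowest entry (7.98%). Among the sh65 libraries of MOLM13 MBNL1 was at 8.26, 13.05, 14.26 and 15.36 RPKM and entry at 39.0, 29.6, 27.5 and 24.02%, in opposite order. In the sh65 libraries of MV4;11 MBNL1 was 10.74, 12.77 and 12.35 RPKM and entry 40.7, 32.9 and 33.3%, also in opposite order. So were the sh64 libraries of MOLM13 at day 4 (2.942, 2.958 and 3.804 RPKM, entry 73.76, 73.47 and 60.82%). The sh64 libraries of MV4;11 and of day 12 were not strictly so. Among shNT groups the order was opposite in MV4;11 and the second MOLM13 set, and not in the first or the day 12 set. In MOLM13 with sh64 at day 4 libraries 1 and 2 were nearly equal, so the order rests on library 3, which stood apart. The order of the MOLM13 sh65 libraries follows their division into pairs. No order within a group was tested. The libraries fall into clusters by hairpin, so no correlation over all of them is given.

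**Figure D3:**
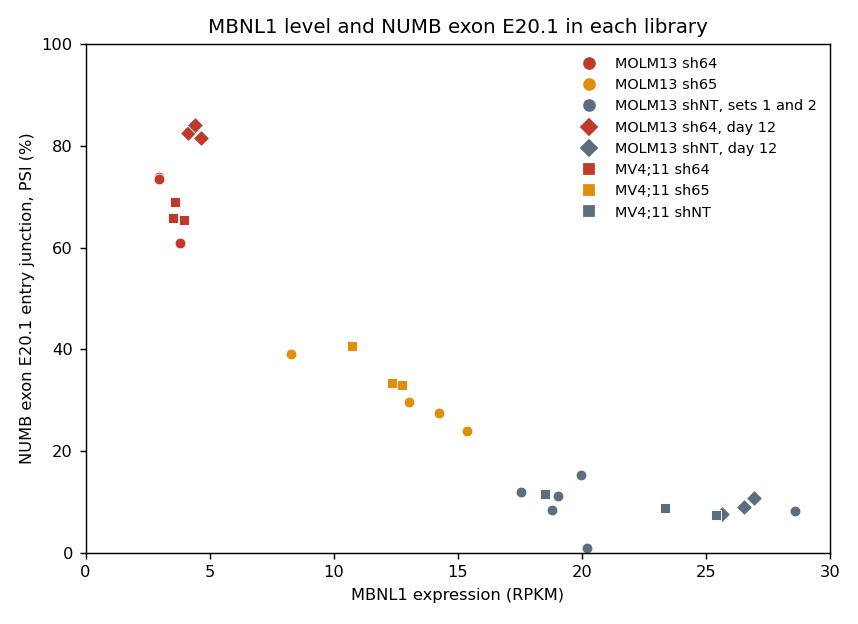
MBNL1 expression (RPKM, horizontal axis) and use of the junction that enters NUMB exon E20.1 (PSI in percent, vertical axis) in each of the 28 libraries; color gives the hairpin and the marker shape the line and day. The sh64 libraries lie at 2.94 to 4.65 RPKM and at 60.8% or more, the sh65 libraries at 8.26 to 15.4 RPKM and 24.02 to 40.7%, and the shNT libraries at 17.5 RPKM or more and at most 15.2%.

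Among the 14 NUMB events, which the table places in 1 cluster, 4 were called in at least 1 knockdown comparison. The fourth was the skipping of E13.1, the insert of the phosphotyrosine-binding domain. At day 12 it was used at 95.7, 93.5 and 93.6% with sh64, against 81.4, 86.5 and 82.4% with shNT, a difference of 10.8 points (SE 1.62, adjusted p = 0.0948, limma). It fell under the 10 points of the call when shNT library 1 of day 12 was left out (9.83 points). In MOLM13 at day 4 it stood at 98.5, 94.3 and 94.4% with sh64, against 86.0, 88.9 and 90.0% with shNT, 7.43 points higher and thus under the size asked for a call. In MV4;11 the values with sh64 were 97.5, 97.7 and 97.5% and with sh65 94.6, 91.4 and 93.5%, against 91.6, 96.9 and 92.7% with shNT, so that sh64 lay just above and sh65 overlapped. The other 10 NUMB events, among them 2 alternative promoters and 2 alternative ends, were measured in all 5 comparisons and none was called; their largest difference from shNT was 10.6 points.

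Over all 10 genes, 3 of 76 tested events were called in MOLM13 with sh64, where 1.73% of all events were called, 5 of 74 in MOLM13 with sh65 (1.28%), 4 of 80 at day 12 (2.34%), 4 of 78 in MV4;11 with sh64 (1.64%) and 5 of 80 in MV4;11 with sh65 (0.866%). NUMB events made up 3, 2, 4, 3 and 3 of these. Linked junctions of the same cluster are counted separately here. With a threshold on the adjusted p of 0.05, 3 events were called in MOLM13 with sh64, 3 at day 12 and 3 in MV4;11 with sh64. All of them were junctions of NUMB E20.1, where 0.269%, 0.782% and 0.278% of all events passed. None was called with sh65 in MOLM13 (0.0265% of all events) or in MV4;11 (0.0188%). With sh65, 8 events in MOLM13 and 7 in MV4;11 had an unadjusted p under 0.05. The share of all events at that threshold was not computed. The median difference over the tested events of the 10 genes was 0, as it was over all events. With sh64 in MOLM13, at either day, no event of the other 9 genes was called.

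The remaining called events belonged to NOTCH1, NOTCH2 and SPEN, and each was called in 1 knockdown comparison. For NOTCH1, a receptor, 3 events at the intron after E27.1 were called in MOLM13 with sh65. The spliced junction was used at 78.4, 78.0, 77.7 and 71.4% with sh65, against 100% in all 3 libraries of the second shNT set (-23.6 points, adjusted p = 0.0577, limma). The first shNT set of the same line stood at 78.2, 100 and 68.4%, and with both sets together the difference was -14.7 points and was no longer called. In MV4;11 the same junction was at 84.7, 87.8 and 88.5% with sh64 and at 100, 69.4 and 68.7% with sh65, against 63.6, 71.8 and 86.6% with shNT.

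For NOTCH2, the second receptor expressed here, the junction from E1.1 to E4.1 was used at 97.9, 98.4 and 100% with sh64 in MV4;11, against 82.0, 86.9 and 86.8% with shNT (13.5 points, SE 1.67, adjusted p = 0.110, limma). With sh65 in MV4;11 it was at 96.0, 97.6 and 86.9%, which overlapped shNT. NOTCH2 has near-identical partial copies in the genome, and no source used here says how reads were divided among them, so its values are uncertain.

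SPEN, the corepressor partner of RBPJ, held 16 of the 85 events, 10 of them retained introns. In MV4;11 the junction from E2.1 to E4.1 was used at 36.8, 36.0 and 47.6% with sh65, against 58.3, 67.5 and 62.1% with shNT (-22.5 points, adjusted p = 0.434, limma). The junction from the alternative first exon E3.1 to E4.1 was used at 49.5, 40.0 and 41.7% with sh65, against 31.7, 27.7 and 27.6% with shNT (14.7 points, adjusted p = 0.470, limma). Neither passed adjustment. The first call was lost without sh65 library 1 (-20.8 points), sh65 library 2 (-20.4 points) or any one of the shNT libraries (-24.6, -20.0 and -22.7 points), and the second without sh65 library 2 (16.6 points), sh65 library 3 (15.7 points) or any one of the shNT libraries (16.1, 14.1 and 14.0 points). In MOLM13 the E3.1 junction was at 36.0, 36.4, 41.1 and 30.1% with sh65, against 45.0, 46.7 and 58.3% with shNT, lower rather than higher. The E2.1 to E4.1 junction stood at 58.0, 63.6, 45.7 and 66.7% with sh65 in MOLM13, against 23.5, 53.3 and 16.7% with shNT, a difference of 27.3 points that also ran opposite to MV4;11 (unadjusted p = 0.0435, adjusted p = 0.637, limma). It was called without shNT library b (38.4 points) and with all 9 groups in the fit, and was not called with all libraries.

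At the level of expression the changes were small. Of the 10 genes, 9 passed the minimum of 1 RPKM in either group in every comparison. No gene was called (unadjusted p of 0.01 or less and a 1.5-fold change) in MOLM13 with sh64, where 2.42% of all genes were called, in MOLM13 with sh65 (3.24%), at day 12 (5.52%) or in MV4;11 with sh65 (3.63%), and 1 gene, NOTCH1, was called in MV4;11 with sh64 (6.51%). In the 4 comparisons without a call, 2, 2, 8 and 1 of the 9 genes had an unadjusted p under 0.05. The share of all genes at that threshold was not computed. At day 12, 49.7% of all genes passed even an adjusted p under 0.05. With same-numbered libraries paired, 729 rather than 249 genes were called in MOLM13 with sh64, and still none of the 9, since those that passed adjustment (NOTCH1, ADAM10 and SPEN, below 1.5-fold) were too small. The median log2 fold change of the 9 genes was 0.20 in MOLM13 with sh64 (all genes -0.0014), 0.30 with sh65 (all genes 0.05), 0.19 at day 12 (all genes 0.04), 0.10 in MV4;11 with sh64 (all genes 0.01) and 0.21 with sh65 (all genes 0.06). In MOLM13 with sh64 the median was the value of MAML1. That gene passed the minimum there only through sh64, its higher group (1.27 against 0.964 RPKM). Fold changes are on the log2(RPKM + 1) scale throughout, which understates those of low genes.

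**Figure D4:**
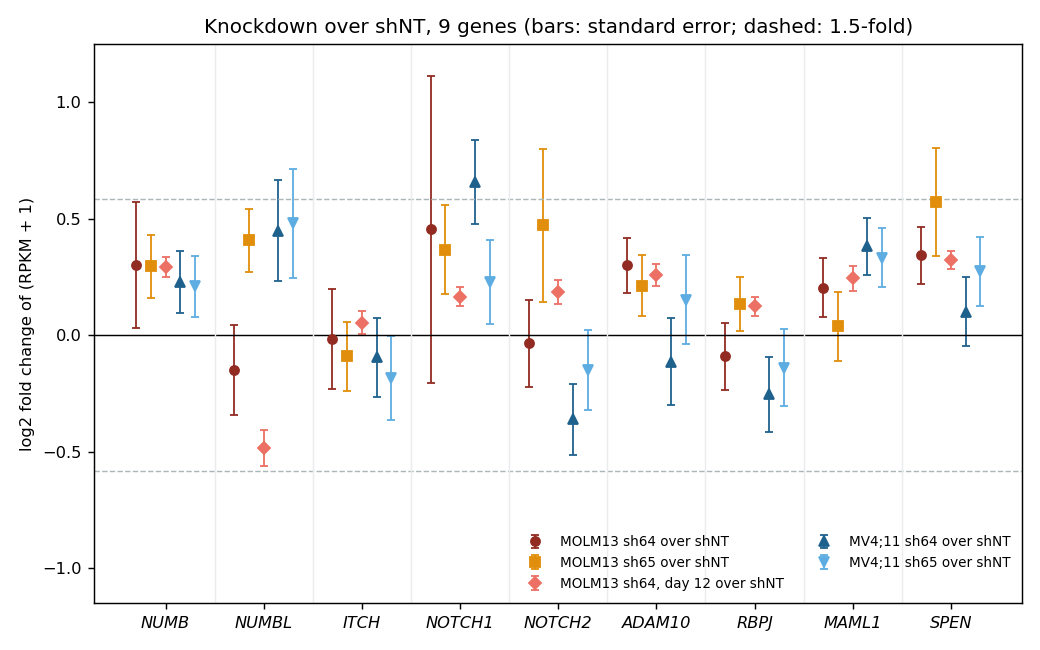
Log2 fold change of (RPKM + 1), knockdown over shNT, for the 9 genes that passed the expression minimum (horizontal axis) in the 5 comparisons (marker and color); bars are standard errors and dashed lines mark a 1.5-fold change. NUMB lies between 0.21 and 0.30 in all 5 comparisons, and NOTCH1 in MV4;11 with sh64 at 0.66.

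NUMB itself was at 5.27, 5.30 and 5.32 RPKM with sh64 at day 12, against 4.21, 4.28 and 3.92 RPKM with shNT (log2 fold change 0.29, SE 0.04, adjusted p = 0.000958, limma), a significant difference under 1.5-fold. Every sh64 library lay above every shNT library. In the other comparisons the fold change missed the test. It was 0.30 in MOLM13 with sh64, at 5.39, 5.22 and 10.13 RPKM with sh64 against 4.77, 4.44 and 6.50 RPKM with shNT, 0.17 without both libraries numbered 3 and 0.03 to 0.45 when 1 library was left out. In MOLM13 with sh65 it was 0.29, in MV4;11 with sh64 0.23 and in MV4;11 with sh65 0.21 (adjusted p = 0.291, 0.249 and 0.388, limma), and without MV4;11 shNT library 3 the MV4;11 values were 0.10 and 0.08. In MOLM13 with sh65 it was 0.16 without sh65 libraries 1 and 2 and 0.43 without sh65 libraries 3 and 4.

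NUMBL, the paralog of NUMB, went the other way at day 12. It was at 2.49, 1.95 and 1.83 RPKM with sh64, against 3.31, 3.22 and 3.39 RPKM with shNT (log2 fold change -0.49, SE 0.08, adjusted p = 0.00138, limma). The ratio of mean RPKM was 0.632, past 1.5-fold, and with a pseudocount of 0.1 in place of 1 the log2 fold change was -0.65 and NUMBL was called. In MOLM13 with sh65 it was at 3.42, 2.71, 2.90 and 2.91 RPKM, against 2.56, 1.74 and 1.77 RPKM with shNT (0.41, adjusted p = 0.1999, limma). In MV4;11 it was at 3.19, 2.69 and 2.97 RPKM with sh64 and at 3.74, 2.85 and 2.59 RPKM with sh65, against 1.24, 1.56 and 3.22 RPKM with shNT, where library 3 decided the result. Without that library the log2 fold change was 0.72 with sh64 (adjusted p = 0.00056, limma) and 0.75 with sh65 (adjusted p = 0.0049, limma), both past the call; with it they were 0.45 and 0.48 and were not called. ITCH, the ligase, did not pass the test in any comparison with all libraries, with log2 fold changes between -0.18 and 0.05. Without MV4;11 shNT library 3 an adjusted p under 0.05 was reached by 7 of the 9 genes with sh64, where 59.8% of all genes reached it, and by 5 with sh65 (39% of all genes). ITCH (-0.29 with sh64 and -0.38 with sh65) and RBPJ (-0.43 and -0.32) were then lower with both hairpins, NUMBL, NOTCH1 (0.86 and 0.43) and MAML1 (0.49 and 0.44) higher with both, and NOTCH2 (-0.52) and ADAM10 (-0.32) lower with sh64.

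NOTCH1 was at 24.39, 19.26 and 20.53 RPKM with sh64 in MV4;11, against 11.45, 11.15 and 17.65 RPKM with shNT. The log2 fold change was 0.66 (SE 0.18, adjusted p = 0.0618, limma), past the unadjusted call and not past adjustment. The call was lost without any one of the sh64 libraries (0.56, 0.73 and 0.68) or without shNT library 1 (0.57) or 2 (0.55). With sh65 NOTCH1 was at 16.97, 15.99 and 13.86 RPKM, which overlapped shNT (0.23, adjusted p = 0.481, limma). Set against sh65 directly, sh64 was higher by 0.43 (SE 0.10, adjusted p = 0.0192, limma), under 1.5-fold. Between the hairpins none of the 9 genes was called, where 3.38% of all genes were, and 2 had an adjusted p under 0.05, NOTCH1 and ADAM10, where 24% of all genes did. In MOLM13 NOTCH1 was at 7.32, 9.44 and 30.57 RPKM with sh64, against 5.62, 6.42 and 20.66 RPKM with shNT. The libraries numbered 3 were the high ones in both groups, and sh64 was higher within each same-numbered pair (0.46, adjusted p = 0.851, or 0.0164 with the pairs as a block, limma). The value was 0.41 without both libraries numbered 3, and it ran from -0.13 to 1.00 when 1 library was left out. At day 12 it was at 14.02, 13.37 and 13.52 RPKM with sh64, against 12.02, 12.12 and 12.00 RPKM with shNT (0.17, adjusted p = 0.00905, limma).

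NOTCH2 was at 4.81, 4.47 and 4.82 RPKM with sh64 at day 12, against 3.99, 3.77 and 4.27 RPKM with shNT (0.19, adjusted p = 0.0175, limma). In MV4;11 it was at 11.87, 11.48 and 13.35 RPKM with sh64, against 18.94, 16.87 and 12.72 RPKM with shNT (-0.36, adjusted p = 0.137, limma). With sh65 in MOLM13 the libraries disagreed, at 2.78, 3.28, 7.97 and 8.23 RPKM, against 3.29, 3.67 and 3.16 RPKM with shNT. SPEN showed the same division, at 1.61, 2.23, 4.00 and 3.75 RPKM with sh65, against 1.76, 1.33 and 1.52 RPKM with shNT. Without sh65 libraries 1 and 2, NOTCH2 (1.06, adjusted p = 0.0338, limma), SPEN (0.95, adjusted p = 0.0372, limma) and NOTCH1 (0.64, adjusted p = 0.0799, limma) were called. In that fit, chosen after seeing the data, 685 of 10202 genes were called, against 329 of 10156 with all 4 libraries. With all 4 libraries none of these genes was called. Without sh65 library 1 alone SPEN was (0.75), where 281 of 10159 genes were. Without library a of the second shNT set none of these genes was called, where 904 of 10188 genes were.

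ADAM10, the protease, was at 15.37, 14.26 and 15.01 RPKM with sh64 at day 12, against 11.97, 12.05 and 12.79 RPKM with shNT (0.26, adjusted p = 0.00268, limma). In MOLM13 at day 4 it was at 15.55, 16.35 and 17.50 RPKM with sh64, against 13.07, 12.59 and 13.90 RPKM with shNT. The groups did not overlap, and the difference passed adjustment only with the pairs as a block (0.30, adjusted p = 0.468 without the block and 0.0303 with it, limma). In MV4;11 ADAM10 was lower with sh64 than with sh65 (16.81, 16.52 and 17.98 RPKM against 19.27, 21.58 and 21.57 RPKM, log2 fold change -0.27, adjusted p = 0.0298, limma), both hairpins lying within the range of shNT.

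In the nucleus, RBPJ, the DNA-binding protein, differed by 0.12 at day 12 (10.49, 10.94 and 11.08 RPKM with sh64, against 9.77, 9.81 and 10.02 RPKM with shNT, adjusted p = 0.0347, limma) and missed the test elsewhere with all libraries. MAML1, the coactivator, was at 1.49, 1.64 and 1.67 RPKM with sh64 at day 12, against 1.33, 1.18 and 1.09 RPKM with shNT (0.24, adjusted p = 0.00686, limma). In MV4;11 it was at 2.57, 2.35 and 2.37 RPKM with sh64 and at 2.49, 2.30 and 2.17 RPKM with sh65, against 1.38, 1.496 and 2.07 RPKM with shNT, without overlap but not past adjustment (0.38 and 0.33, adjusted p = 0.0832 and 0.187, limma). SPEN was at 3.85, 3.84 and 3.66 RPKM with sh64 at day 12, against 2.85, 2.81 and 2.81 RPKM with shNT (0.32, SE 0.04, adjusted p = 0.000376, limma), and in MOLM13 at day 4 it was at 2.39, 2.30 and 2.75 RPKM with sh64, against 1.59, 1.78 and 1.86 RPKM with shNT (0.34, adjusted p = 0.427, or 0.0249 with the pairs as a block, limma, and 0.32, adjusted p = 0.0465, without both libraries numbered 3).

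At day 12, 8 of the 9 genes differed at an adjusted p under 0.05, NUMBL downward and the other 7 upward, each by less than 1.5-fold on the log2(RPKM + 1) scale (NUMBL by more at a pseudocount of 0.1); of all genes 49.7% passed that adjusted p. In a direct test of the difference between the days none of the 9 passed (adjusted p = 0.9996 for each, limma interaction), the smallest unadjusted p being 0.146. That test does not pair the day 4 libraries by number, and those numbered 3 stood apart in both groups. With the day 4 pairs as a block the SE of the difference was 0.11 rather than 0.29 for NUMB and 0.07 rather than 0.72 for NOTCH1. NOTCH1 then differed between the days (-0.29, day 12 minus day 4, adjusted p = 0.0353, limma), where 10.8% of all genes did, and the other 8 did not pass (NUMBL -0.33, adjusted p = 0.0774, and NUMB -0.01, adjusted p = 0.968).

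HES1, the target gene, stayed under the expression minimum and was not tested. It was at 0.07, 0.07 and 0.18 RPKM with sh64 in MOLM13, against 0.08, 0.14 and 0.43 RPKM with shNT, and at 0.37, 0.30 and 0.21 RPKM with sh64 at day 12, against 0.33, 0.36 and 0.46 RPKM with shNT. With sh65 in MOLM13 it was at 0.01, 0.10, 0.18 and 0.09 RPKM, against 0.09, 0.05 and 0.21 RPKM with shNT. In MV4;11 it was at 0.62, 0.56 and 0.39 RPKM with sh64 and at 0.72, 0.51 and 0.90 RPKM with sh65, against 1.02, 0.73 and 0.82 RPKM with shNT. The sh64 libraries of MV4;11 lay below shNT and the others overlapped their controls.

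**Figure D5:**
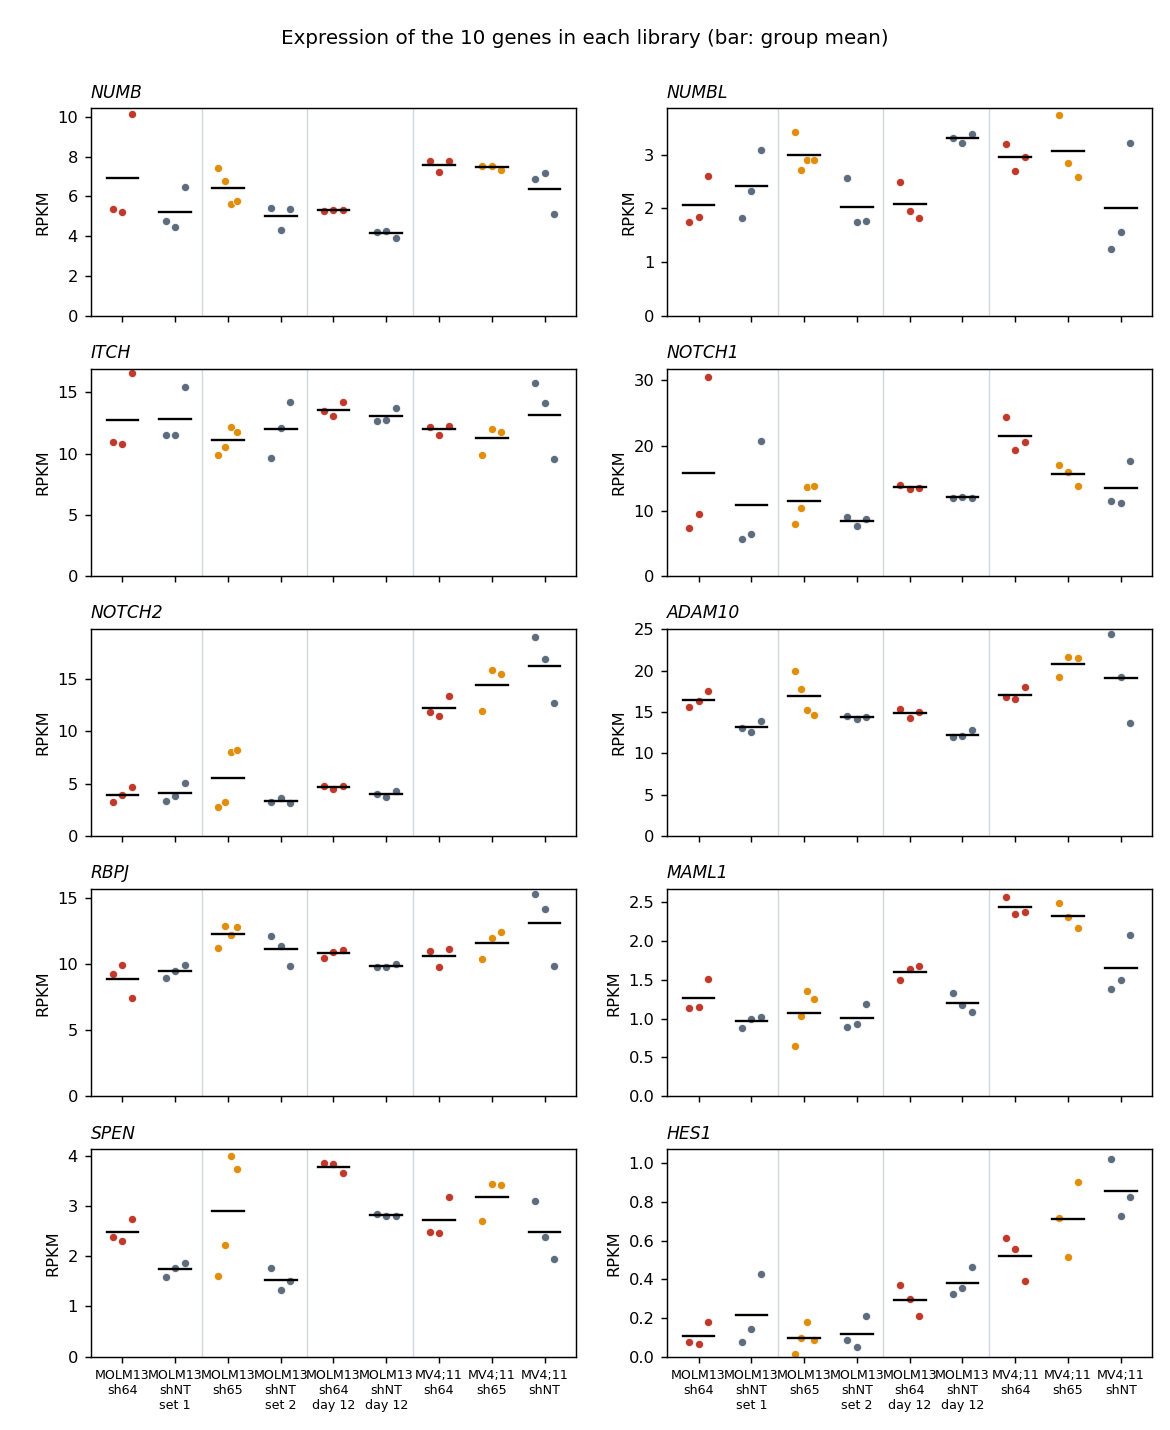
Expression (RPKM, vertical axis, a separate scale for each panel) of the 10 genes in each of the 28 libraries (points) by group (horizontal axis); black bars are group means. NOTCH2 lies at 11.5 RPKM or more in MV4;11 and at 8.23 RPKM or less in MOLM13, and the highest group mean of HES1 is that of MV4;11 with shNT.

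The lines differed without knockdown in 1 of the 9 genes, where 14.2% of all genes were called. NOTCH2 was at 18.94, 16.87 and 12.72 RPKM in MV4;11 with shNT, against 3.29, 3.67 and 3.16 RPKM in MOLM13 with the second shNT set (log2 fold change 1.96, SE 0.19, adjusted p = 0.000479, limma). HES1, untested, was at 1.02, 0.73 and 0.82 RPKM in MV4;11, against 0.09, 0.05 and 0.21 RPKM in MOLM13. Of the 74 events tested between the lines 1 was called, where 1.16% of all events were, the E3.1 junction of SPEN, lower in MV4;11 and not significant after adjustment (difference -21.01 points, adjusted p = 0.428, limma).

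The wider pathway was described by a list of 79 genes, of which 77 were in the table and 56 to 59 passed the expression minimum. With sh64 in MOLM13 0 of 57 were called higher and 2 lower. These were MFNG, a glycosyltransferase that modifies Notch (51.7 against 84.2 RPKM, log2 fold change -0.69, adjusted p = 0.207, limma), and SNW1, a nuclear partner of Notch that is also part of the spliceosome (40.7 against 69.5 RPKM, -0.76, adjusted p = 0.181, limma). With sh64 in MV4;11 4 of 57 were called higher and 1 lower. SNW1 was again the lower one (35.5 against 61.2 RPKM, -0.76, adjusted p = 0.0263, limma), and at day 12 it was lower by less than 1.5-fold (37.8 against 56.1 RPKM, -0.56, adjusted p = 0.000143, limma), while with sh65 its log2 fold changes were -0.12 in MOLM13 and -0.03 in MV4;11.

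The higher ones in MV4;11 with sh64 were NOTCH1, the protease FURIN that matures the receptor (27.7 against 13.4 RPKM, 1.02, adjusted p = 0.0234, limma), the corepressor TLE3 (15.0 against 8.83 RPKM, 0.71, adjusted p = 0.0308, limma) and the endocytic adaptor subunit AP2A1 (72.9 against 46.9 RPKM, 0.66, adjusted p = 0.0585, limma). With sh65, 1 of 59 was called in MV4;11, FURIN (23.7 against 13.4 RPKM, 0.80, adjusted p = 0.0795, limma), and 1 of 56 in MOLM13, the ubiquitin ligase MIB1 (5.24 against 2.99 RPKM, 0.63, adjusted p = 0.158, limma). Both MV4;11 comparisons use the same shNT libraries.

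At day 12, 0 of 56 were called higher and 2 lower, both of them Notch ligands. JAG1 was at 7.81 RPKM with sh64 against 15.9 RPKM with shNT (-0.94, SE 0.05, adjusted p = 1.17e-05, limma) and DLL1 at 0.69 against 2.31 RPKM (-0.97, SE 0.07, adjusted p = 3.77e-05, limma). DLL1 passed the expression minimum only through shNT, the group where it was higher, and its call depends on that. JAG1 was also lower with sh64 in MV4;11, under 1.5-fold (20.5 against 28.8 RPKM, -0.47, adjusted p = 0.0409, limma), and missed the test in MOLM13 at day 4 (-0.34, adjusted p = 0.435, limma). With sh65 JAG1 stood at 24.4 against 17.3 RPKM in MOLM13 (0.54, adjusted p = 0.270, limma) and at 28.1 against 28.8 RPKM in MV4;11 (-0.04). DLL1 stood at 13.4 against 10.4 RPKM with sh65 in MOLM13 (0.38) and at 4.54 against 3.65 RPKM in MV4;11 (0.25), and its log2 fold change with sh64 was -0.89 in MOLM13 at day 4 and -0.22 in MV4;11, none past the test. The share of list genes called was 3.51% in MOLM13 with sh64, where 2.42% of all genes were called. It was 1.79% against 3.24% in MOLM13 with sh65, and 3.57% against 5.52% at day 12. In MV4;11 it was 8.77% against 6.51% with sh64 and 1.69% against 3.63% with sh65. The median log2 fold change of the list was 0.05, 0.14, 0.12, 0.09 and 0.18 in MOLM13 with sh64, MOLM13 with sh65, day 12, MV4;11 with sh64 and MV4;11 with sh65. Over all genes it was -0.0014, 0.05, 0.04, 0.01 and 0.06 in the same order.

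The patterns most like that of NUMB were sought among all features by the correlation of group means over the 9 groups, as a description. For NUMB expression the closest of 8908 genes were GSN (r = 0.98), KDM5B (0.979), TMEM219 (0.975), CDC42SE1 (0.97) and NBR1 (0.97). For the skipping of exon E20.1 events among the closest of 23189 were in GIT2 (r = -0.996), INF2 (-0.994), CCDC88C (0.993) and ZDHHC7 (-0.993). Groups that share hairpin, line or controls enter each of these values.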

How the data were processed

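The authors prepared RNA-seq libraries with a TruSeq RNA kit, used STAR for alignment against GRCh37 (hg19), and deposited RPKM values for expression and, for splicing, PSI as a fraction of junction reads, both from AltAnalyze. No source used here says whether counting used strand. The deposited RPKM values lay on multiples of a step (100% of low values), which gave the relative depth. A column of the authors' own PSI differences was not used.

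Libraries were grouped by their labels. The labels give 6 MOLM13 shNT libraries in 2 sets; the second, matched by group but not by library, was used for sh65. Expression was tested on log2(RPKM + 1) where 1 of the groups averaged 1 RPKM or more, and PSI where over 50% of each group was measured, with moderated 2-group tests in limma 3.58.1 (R 4.3.3) after the tests were checked on simulated data. P-values were adjusted by Benjamini-Hochberg over all features tested. Calls needed an unadjusted p no higher than 0.01, and 1.5-fold or over 10 points of difference; an adjusted p under 0.05 with the same size is given beside it. Differences between days and lines were interaction terms. Alternatives covered the pseudocount, filters, normalization, thresholds, controls, a replicate block and leaving out libraries; those that leave out libraries standing apart were chosen after seeing the data.

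Named were all 10 genes, MBNL1, every event called in a knockdown comparison, called genes of the pathway list, and the 5 genes and events most correlated with NUMB, apart from items that are not reported here. The members and lists were chosen with earlier results of these data known. Same-numbered libraries of MOLM13 sh64 and its shNT deviated together (r = 0.858, 0.811 and 0.892 for expression and 0.168, 0.105 and 0.300 for splicing). Library 3 stood apart in both groups, and deviations from a mean of 3 libraries carry this into the values of libraries 1 and 2. The values thus link 3 with 3 only. Whether 1 pairs with 1 and 2 with 2 was not tested, and results with the pairs as a block rest on the label numbers. Of 272 junction ends of the 85 events 244 (89.7%) matched an exon edge of the annotation, and 0 did once shifted by 1 base. Sequences were read from that genome with pysam 0.24.0 and samtools 1.23.1 under Python 3.11.15, and exons from GENCODE release 44 mapped to GRCh37. Figures were drawn with matplotlib 3.10.9.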

Additional observations from a re-analysis of the deposited data

Results flagged for a closer look

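Among 87 values of the MOLM13 sh65 group, the one group with 4 libraries, 8 had a library far from the other 3. Chance flags about 1 in 20 groups of continuous values, a rate that does not apply to 6 of the 8, where the other 3 libraries held the same value and any departure is flagged. In SPEN these were the junction from an intronic site to E2.1 (7.89% in the library that stood out), the junction from E1.1 to an intronic site (2.78%), the spliced junction from E13.1 to E14.1 (99.3%) and the junction from E1.1 to E2.1 (87.2%). All but the E13.1 junction were measured on or against the junction from E1.1 to E2.1, so they are not separate observations. The others were the NUMB junction from E17.9 to E18.1 (93.4%), the NOTCH2 junction from E23.1 to E24.1 (93.9%), the ADAM10 junction from E19.1 to E20.1 (98.9%) and the NOTCH1 junction from E27.1 to E28.2 (71.4%).

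The junction from E3.1 to E4.1 of SPEN was higher with sh65 than with shNT in all MV4;11 libraries and lower with sh65 than with shNT in all MOLM13 libraries. The effects differed by 28.8 points (MV4;11 minus MOLM13), and this difference was not tested.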

How the results depend on the processing

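Under every alternative run, 3 NUMB E20.1 events stayed called with sh64 in MOLM13, at day 12 and in MV4;11, except where 1 event stood for its cluster. Counting clusters gave 1 call in MOLM13 with sh64, 2 with sh65, 2 in MV4;11 with sh64, 2 with sh65 and 1 at day 12. The share of all clusters called was not computed, so these counts have no background to be read against. With sh65 the 5 splicing calls in MOLM13 and the 5 in MV4;11 became 3 and 3 at a difference over 20 points and 0 and 0 at an adjusted p under 0.05. In MOLM13 with sh65 they were 3 with both shNT sets, 3 without sh65 libraries 1 and 2, and 3 without sh65 libraries 3 and 4. Without sh65 libraries 1 and 2, 3 of the member genes were called, and 685 over all genes. In MV4;11 with sh65 they were 3 with all 9 groups in the fit. The NOTCH1 call in MV4;11 with sh64 was lost (0 genes) at a pseudocount of 0.1, with no filter on RPKM, with all 9 groups in the fit and at an adjusted p under 0.05, and at day 12 NUMBL was called (1 gene) at a pseudocount of 0.1 (log2 fold change -0.65).

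Leaving out 1 library at a time gave 0 genes and 3 to 4 events in MOLM13 with sh64, 0 to 1 genes and 3 to 4 events in MOLM13 with sh65, 0 to 2 genes and 4 to 7 events in MV4;11 with sh64, 0 to 1 genes and 2 to 4 events in MV4;11 with sh65, 0 genes and 3 to 5 events at day 12, 3 to 5 events between the hairpins in MV4;11, and 1 gene and 0 to 3 events between the lines. The highest counts with sh64 in MV4;11 came without shNT library 3. Without that library 1953 genes rather than 663 were called with sh64 and 1338 rather than 370 with sh65. Of 1172 single values called in neither fit, 52 had the other sign under an alternative.

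With a replicate block 3 events were called in MV4;11 with sh65, where the exit of NUMB E20.1 (p 0.0224 in limma) and 1 SPEN event (p 0.0257) were lost, and 3 at day 12, where NUMB E13.1 was lost (p 0.0177). These numbers did not pair the libraries (expression r of -0.656 to 0.055 for sh65 and -0.084 to 0.050 for sh64 in MV4;11, and -0.109 to -0.045 at day 12). The block changed the count of all genes called to 796 from 663 in MV4;11 with sh64, to 367 from 370 with sh65 and to 560 from 557 at day 12, and that of all events to 830 from 1215, to 475 from 646 and to 1311 from 1852 in the same comparisons. With the MOLM13 day 4 pairs as a block, added after seeing the data, the difference between the days passed adjustment for 1 gene (NOTCH1) rather than 0, and that between the lines for 0. For MOLM13 with sh65 no paired analysis was possible. Its libraries and the second shNT set share only 1 number, and that set was matched by group and not by library. Over all features, fitting all 9 groups together called 490 genes and 2230 events rather than 249 and 1246 in MOLM13 with sh64, 1700 events rather than 916 with sh65, 2059 events rather than 1215 in MV4;11 with sh64, 1210 events rather than 646 with sh65. No filter on RPKM called 160, 343 and 221 genes rather than 329, 663 and 370 in MOLM13 with sh65, MV4;11 with sh64 and MV4;11 with sh65. A pseudocount of 0.1 called 583 genes rather than 370 in MV4;11 with sh65 and 870 rather than 557 at day 12, where a mean of at least 5 RPKM called 360. Both shNT sets together called 417 genes rather than 249 in MOLM13 with sh64. A difference over 20 points called 641 and 358 events rather than 1246 and 916 in MOLM13 with sh64 and sh65, 615 and 281 rather than 1215 and 646 in MV4;11 with sh64 and sh65, and 833 rather than 1852 at day 12. Without library a of the second shNT set 904 genes and 1523 events were called in MOLM13 with sh65 rather than 329 and 916, and without both libraries numbered 3 758 genes rather than 249 in MOLM13 with sh64. The cause of these changes was not tested. The unknown depth of PSI values limits what can be said of low or full junction use, and HES1 was too low to test.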
